A study of Mus musculus with 8 samples.

Results

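The H/ACA box small nucleolar RNA genes were described in resting B cells and T cells of mouse spleen, in ribosome footprint libraries and in RNA-seq libraries. They were chosen by name alone, as the gene IDs whose mouse symbol is Snora followed by a number. The rule found 42 gene IDs among 53801 in the count tables, under 40 symbols, since Snora16a and Snora43 each have 2 IDs. The groups were footprints of B cells, footprints of T cells, RNA-seq of B cells and RNA-seq of T cells, with 2 libraries in each. All cells came from spleens of B6 mice, were isolated with a Miltenyi magnetic kit and stayed 2 hours in complete RPMI medium. Cells for footprints also received cycloheximide, which stalls ribosomes, at 100 µg/ml for 15 minutes. Their lysate was digested with RNase A, RNase T1 and S7 nuclease, and the RNA of the monosomes was sequenced from a single end. RNA-seq libraries came from total RNA through the TruSeq RNA v2 kit, were sequenced from both ends and carry no cycloheximide label. Age, sex, the number of animals and any pooling are not given in the labels used here.

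An H/ACA small nucleolar RNA folds into a pair of hairpins, with an H box, whose letters are ANANNA, in the hinge between them and an ACA box close to the 3′ end. It guides the conversion of chosen uridines of ribosomal RNA to pseudouridine, as part of a particle with dyskerin (Dkc1, the enzyme), Nop10, Nhp2 and Gar1. In mammals most of these RNAs are cut from introns of host genes, many of which encode ribosomal proteins, and they act in the nucleolus without being translated. A count in a footprint library is a sequenced fragment from the monosome fraction, and does not show that a ribosome had been on that RNA.

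Letters were at hand for 3 members, where the annotated gene shares its place with a RefSeq microRNA hairpin (RefSeq tables of GRCm38.p6), and they are shown for the boxes that define the class. The strand, and with it the 3′ end, is that of the hairpin and is assumed for the member, whose own strand is not in the tables. Capitals mark ANANNA on that strand and an ACA that stands 3 bases before the 3′ end, and ANANNA matches that overlap this ACA were left in lower case. Snora19 is shown whole as annotated (chr19:60774330-60774385, minus strand, 56 bases), Snora34 by its first 73 of 118 bases (chr15:98519762-98519834, minus strand) and Snora36b by its last 64 of 113 bases (chr1:185242975-185243038, plus strand).
Snora19: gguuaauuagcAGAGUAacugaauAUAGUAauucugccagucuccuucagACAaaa
Snora34: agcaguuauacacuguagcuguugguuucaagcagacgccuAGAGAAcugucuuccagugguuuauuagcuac
Snora36b: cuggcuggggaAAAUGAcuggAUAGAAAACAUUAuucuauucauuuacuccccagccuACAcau
Both sequences that reach the 3′ end carried the ACA at that place, which 1.59% of the 1005 hairpins in the table did. ANANNA is a loose motif: it stood in 45.5% of the first 56 bases, 49.9% of the first 64 bases and 54.6% of the first 73 bases of the hairpins long enough. Of these 3 members, Snora19 and Snora36b had no count in any library and Snora34 had 4 footprint counts in all. The members with high counts below are named without sequence.

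The footprint libraries were shallow. B cell libraries 1 and 3 held 236810 and 232568 counts and T cell libraries 1 and 2 held 627833 and 136433, so that 1 count stood for 1.59 to 7.33 CPM (a gene's count scaled to one size of library). The RNA-seq libraries held 8945905 to 10050986 counts, and 1 count stood for 0.0995 to 0.112 CPM. In footprints all 6 B cell marker genes passed the test as higher in B cells and all 6 T cell markers as lower, and in RNA-seq 6 of 6 B cell markers were higher and 2 of 6 T cell markers lower. In footprints only Cd79a would have reached the filter on low counts with the libraries of the other cell type alone. For the other markers this filter favoured a difference in the direction found. Summed macrophage and neutrophil markers (5 genes) had 114 and 503 CPM in B cell footprint libraries 1 and 3 and 161 and 293 CPM in T cell footprint libraries 1 and 2, with Itgam at 0 in each of the 4. Within each cell type that sum was higher in the library with the larger H/ACA share, carried by S100a8 and S100a9, while Csf1r was lower there. In footprints plasma cell markers (3 genes) had 1322 and 2872 CPM in B cells and 174 and 337 CPM in T cells, the same order. So had markers of the other lineage, with 76.0 and 202 CPM of T cell markers in B cells, and 156 and 601 CPM of B cell markers in T cells. The RNA-seq libraries were uneven too. T cell markers had 62.1 and 367 CPM in B cell RNA-seq libraries 1 and 3, and B cell markers 63.7 and 149 CPM in T cell RNA-seq libraries 1 and 4. Plasma cell markers had 1662 and 559 CPM there in B cells and 1021 and 66.5 CPM in T cells. Macrophage and neutrophil markers had 33.0 and 102 CPM in B cells and 42.0 and 203 CPM in T cells. The part of all these markers in the results was not tested. No label says that the libraries within a group came from different animals, and p-values therefore measure how far these libraries lie apart, which may be technical. Fewer cells of a type and less RNA per cell cannot be told apart in these bulk samples.

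Counts were found for 17 of the 42 gene IDs, 16 of them in footprints and 15 in RNA-seq, and the other 25 were at 0 in all 8 libraries. In a footprint library a count of 0 allows up to 3 counts, which is 4.78 CPM in T cell library 1 and 22.0 CPM in T cell library 2 (counting error only). There were 14 members with counts in all 4 footprint libraries and 12 with at least 100 footprint counts in sum. In RNA-seq 9 members had 10 counts or more over the 4 libraries. Snora47 and Snora2b were seen in footprints alone, and Snora5c in RNA-seq alone, with 1 count in B cell library 1 and 1 in T cell library 1. The members seen in footprints were annotated with 61 to 205 bases (median 127) and the others with 56 to 198 bases (median 120), ranges that overlap. Among the members at 0 were Snora3, Snora7a, Snora52, Snora65 and Snora70, whose spans lie inside the ribosomal protein genes Rpl27a, Rpl32, Rplp2, Rpl12 and Rpl10, all of which had counts in every library.

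Together the members took 0.679% and 2.08% of all counts in the B cell footprint libraries (1 and 3), against 2.18% and 4.06% in the T cell footprint libraries (1 and 2). The share averaged 1.38% ± 0.994 in B cells and 3.12% ± 1.33 in T cells (SD, n = 2 each), a ratio of 0.442. Both B cell libraries lay below both T cell libraries, though B cell library 3 and T cell library 1 were close. The exact two-sided permutation test gave p = 0.333, the smallest that 2 libraries against 2 allow. In RNA-seq the members took 0.000982% and 0.000990% of the counts in B cells against 0.00125% and 0.00180% in T cells, a ratio of the means of 0.646 (exact permutation p = 0.333). The B cell libraries were again both below the T cell libraries.

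A small number of members held most of the footprint counts. Snora21, Snora73b and Snora23 together made up 72.1% and 70.4% of all H/ACA counts in B cell libraries 1 and 3, and 76.3% and 61.5% in T cell libraries 1 and 2. Snora21 alone made up 50.6% and 32.1% in B cells against 34.5% and 31.6% in T cells. Snora23 made up 7.41% and 15.7% in B cells against 26.0% and 11.7% in T cells, so the make-up varied between libraries of a cell type as well as between cell types.

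Snora21, which guides pseudouridylation of large-subunit ribosomal RNA in human cells, was the most abundant member. Its gene (ENSMUSG00000064901, chromosome 11, 97781639 to 97781766 in GRCm38.p6) lies inside the span of Rpl23, a large-subunit ribosomal protein gene. It had 3433 and 6691 CPM in B cell footprint libraries 1 and 3 and 7532 and 12812 CPM in T cell footprint libraries 1 and 2. The B cell values were both below the T cell values. Per length it was also the highest, with a mean of 59508 CPM per kilobase over the 4 footprint libraries. Snora20 followed with 24970.5, Snora30 with 20302, Snora23 with 19276, Snora73b with 18487 and Snora31 with 12622 CPM per kilobase. The place of Snora20 rests on its annotated length of 61 bases, the shortest among the members seen in footprints.

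Snora73b and Snora73a are close copies of U17, an RNA known for its part in cutting the precursor of small-subunit ribosomal RNA rather than for guiding pseudouridine. Both lie inside Snhg3, a noncoding host gene of chromosome 4, from 132352322 to 132352526 and from 132352775 to 132352979. Snora73b had 954 and 4713 CPM in B cell footprint libraries 1 and 3 and 3467 and 6025 CPM in T cell footprint libraries 1 and 2. The groups overlapped, because B cell library 3 lay above T cell library 1. Snora73a had 1 and 9 counts in B cells and 4 and 9 counts in T cells. The division of fragments between these copies is uncertain, since the sources used here do not give the treatment of fragments that match several places.

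Snora23, another guide of large-subunit ribosomal RNA in human cells, lies inside Ipo7, a nuclear import receptor gene (chromosome 7, 110046364 to 110046547). It had 503 and 3272 CPM in B cell footprint libraries 1 and 3 and 5670 and 4742 CPM in T cell footprint libraries 1 and 2, without overlap. Snora30, also a guide of large-subunit ribosomal RNA in human cells, lies inside Srcap, a chromatin remodelling gene (ENSMUSG00000065259, chromosome 7, 127527897 to 127528003). It had 393 and 520 CPM in B cells and 1649 and 6128 CPM in T cells. The B cell values were close to each other, while the T cell values lay apart by 3.72 times.

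Snora20, a guide of small-subunit ribosomal RNA in human cells, lies inside the chaperonin gene Tcp1 (chromosome 17, 12922857 to 12922917). It had 312 and 2171 CPM in B cells and 1175 and 2433 CPM in T cells, with overlap. Snora31 lies inside Tpt1, which encodes the translationally controlled tumour protein (chromosome 14, 75847923 to 75848034). It had 203 and 718 CPM in B cells and 761 and 3973 CPM in T cells. The T cell values of Snora31 were both higher, the nearer of them by little. Snora41 lies inside Eef1b2, a translation elongation factor gene (chromosome 1, 63179023 to 63179135). It had 232 and 697 CPM in B cells and 779 and 418 CPM in T cells, which overlapped. Snora62, known as E2, lies inside the ribosomal protein gene Rpsa (chromosome 9, 120130434 to 120130563). It had 38.0 and 460 CPM in B cells and 350 and 1942 CPM in T cells, again with overlap.

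The lower ranks held Snora78, Snora47, Snora17, Snora69 and Snora57. Snora78, inside the ribosomal protein gene Rps2 and the noncoding Snhg9, had 63.3 and 314 CPM in B cells and 46.2 and 1253 CPM in T cells. Its T cell libraries enclosed the B cell libraries. Snora17, inside the noncoding Snhg7, had 177 and 133 CPM in B cells and 204 and 491 CPM in T cells, without overlap. Snora2b, below these, had 0 and 22 counts in B cells and 22 and 3 counts in T cells, and Snora34 had 0 and 1 in B cells and 2 and 1 counts in T cells. Both lie inside Kansl2, a gene of a histone acetyltransferase complex.

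**Figure D1:**
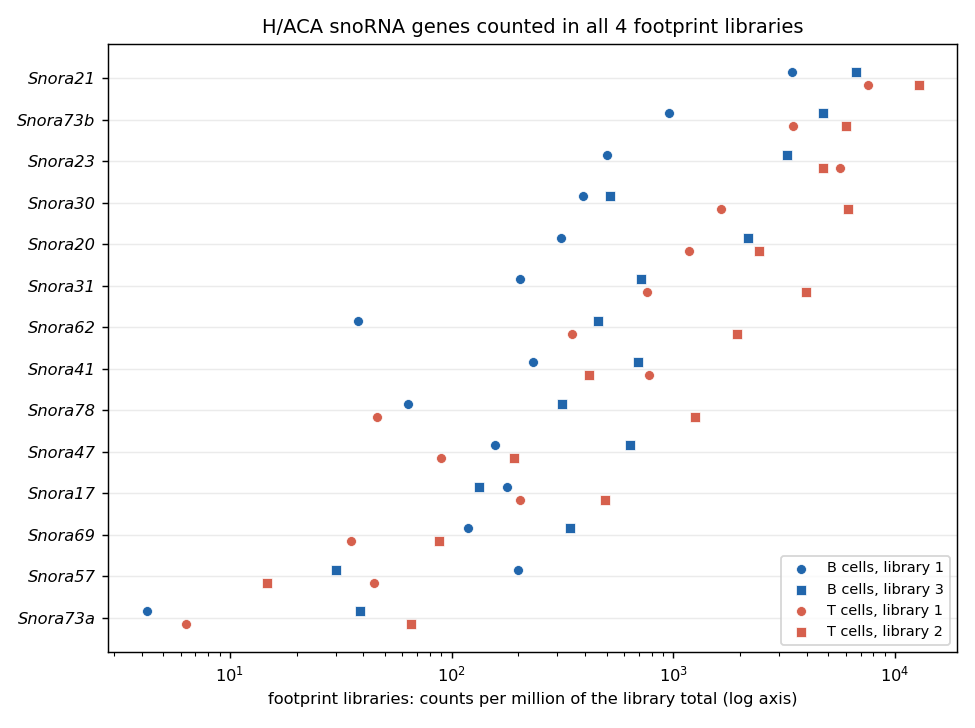
Levels of the 14 H/ACA snoRNA genes counted in all 4 footprint libraries, in CPM of the library total (horizontal log axis), with a point per library, B cells above T cells in each line. Snora21 is at the top with 3433 to 12812 CPM, and the points of a cell type lie apart by up to 12.1 times in B cells (Snora62) and 27.1 times in T cells (Snora78).

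Libraries of the same cell type differed in most members the same way. Of the 14 members counted in all 4 footprint libraries, 12 had a higher CPM in B cell library 3 than in B cell library 1, the exceptions being Snora17 and Snora57. T cell library 2 was above T cell library 1 in 11 of the 14, Snora23, Snora41 and Snora57 being the others. B cell library 1 was the lowest of the 4 libraries for 9 members and T cell library 2 the highest for 9. The ratio between the libraries of a cell type ran from 1.32 (Snora30) to 12.1 (Snora62) in B cells and from 1.20 (Snora23) to 27.1 (Snora78) in T cells.

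The next comparison set footprints against RNA-seq. In B cells all 15 members that passed the filter on low counts were higher in footprints, and likewise all 15 in T cells (edgeR's quasi-likelihood test, Benjamini-Hochberg adjusted p below 0.05, with 0 lower in either cell type). Of all 13227 genes tested, 6.52% were higher in footprints in B cells and 8.91% in T cells. The filter covered all 8 libraries, and of these members Snora31 alone reached it on its RNA-seq counts. The others reached it only with their footprints, which favoured or forced a difference in this direction. Snora41, Snora57 and Snora73b are among them, though they passed the lower filter of the RNA-seq libraries alone. The count is a description. The adjusted p was at most 0.0148 in B cells (Snora73a) and 0.0134 in T cells (Snora2b). The other 27 members were not tested. The median log2 difference of the 15 was 10.74 in B cells and 10.65 in T cells, beside -0.44 and -0.54 over all genes tested.

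The counts show the size of the gap. Snora21 had 813 and 1556 footprint counts in B cells against 2 and 3 RNA-seq counts, in libraries many times deeper. In T cells it had 4729 and 1748 footprint counts against 7 and 3 RNA-seq counts. With the libraries of a group pooled, its share of counts was 18630 times as high in footprints as in RNA-seq in B cells (95% exact counting interval 7972 to 57430). In T cells it was 16100 times as high (8749 to 33590), so the intervals of the cell types overlapped. Snora23 had 119 and 761 footprint counts against 1 and 0 RNA-seq counts in B cells. In T cells it had 3560 and 647 footprint counts against 0 and 0, at least 34860 times as high when 3 RNA-seq counts over the group are allowed. Snora47 had 37 and 149 footprint counts in B cells and no RNA-seq count, at least 2438 times as high. In T cells it had 56 and 26 footprint counts and no RNA-seq count, at least 679 times as high.

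The gap was not the same for each member. Snora31 was the most counted member in RNA-seq, with 41 and 35 counts in B cells against 47 and 73 in T cells, and its ratio was 111 in B cells (85.3 to 147) and 211 in T cells (175 to 258). Snora73b had 13 and 16 RNA-seq counts in B cells against 20 and 23 in T cells, for ratios of 1792 (1242 to 2687) and 1734 (1284 to 2401). Snora41 had 11 and 14 RNA-seq counts in B cells against 18 and 20 in T cells, for ratios of 341 (225 to 539) and 357 (257 to 510). Snora57 had the lowest ratio in T cells, 26.6 (15.4 to 46.3), from 28 and 2 footprint counts against 14 and 14 in RNA-seq. A Spearman correlation was taken over the 15 members seen in footprints that had a host in the count tables. That of the footprint CPM with the RNA-seq counts of the same member was 0.29, a description across genes that share libraries and depth.

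**Figure D2:**
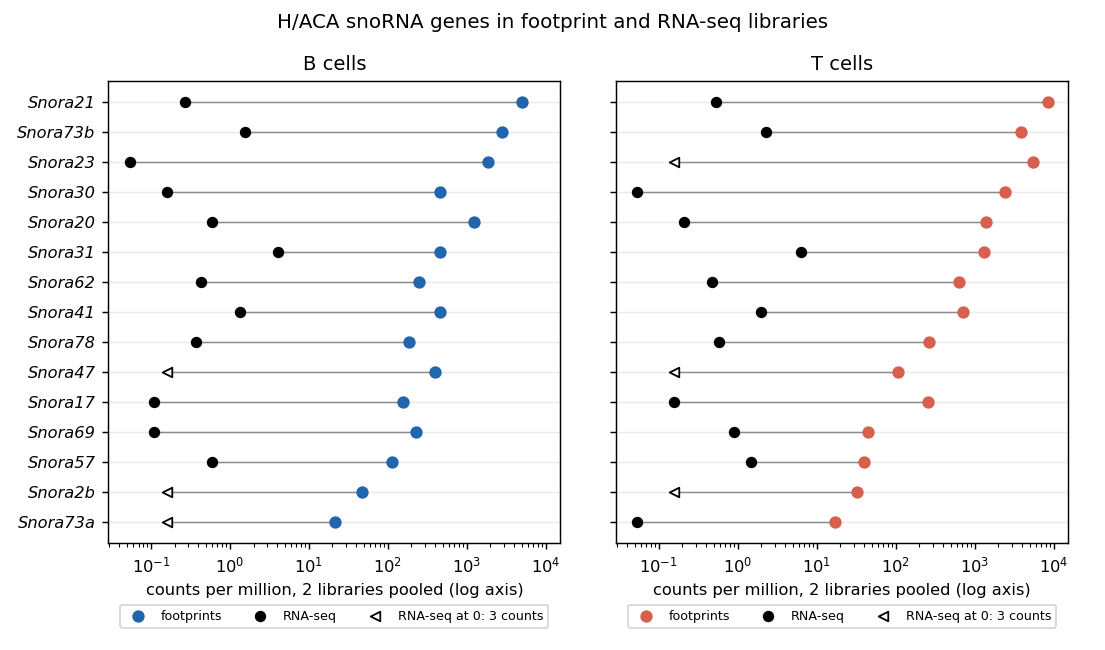
Footprints (coloured points) and RNA-seq (black points) of 15 H/ACA snoRNA genes in B cells (left) and T cells (right), in CPM with the 2 libraries of a group pooled (horizontal log axis). An open triangle stands at 3 counts where RNA-seq had none, and each line joins the values of a gene, all with footprints to the right.

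The assays differed in more than the ribosome. Footprints came from digested monosomes of cycloheximide-treated cells and RNA-seq from a kit known to select polyadenylated RNA, a tail that mature H/ACA RNAs do not carry, and the parts that these play in the gap cannot be told apart. Depth moved with the assay as well. RNA-seq libraries thinned to 136433 counts, the total of the smallest footprint library, held 2 and 0 H/ACA counts in B cells against 2 and 3 in T cells. The footprint library of that total held 5540.

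Other small RNA classes were also more frequent in footprints, by a smaller factor. The C/D box class (99 genes with Snord symbols), which guides ribose methylation of ribosomal RNA, took 0.167% and 0.451% of counts in B cell footprint libraries 1 and 3. It took 0.548% and 0.408% in T cell footprint libraries 1 and 2. Its mean share in footprints was 118 times that in RNA-seq in B cells and 142 times in T cells, beside 1401 and 2045 times for the H/ACA class. H/ACA counts were 4.06 and 4.62 times the C/D counts in B cell footprints and 3.98 and 9.95 times in T cell footprints, against 0.337 to 0.531 times in the 4 RNA-seq libraries. H/ACA counts thus outnumbered C/D counts in every footprint library and in no RNA-seq library. The Cajal body class (9 genes with Scarna symbols), whose RNAs guide the modification of spliceosomal RNA, stayed below both classes in all 8 libraries, with 0.0139% to 0.131% in footprints. These differences between classes were not tested.

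**Figure D3:**
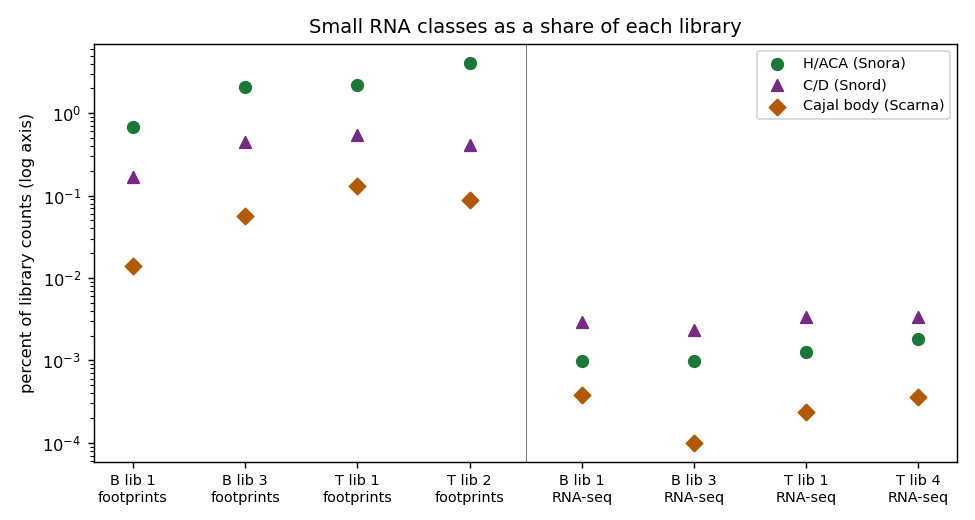
Shares of library counts taken by H/ACA (Snora), C/D (Snord) and Cajal body (Scarna) RNA genes, in percent (vertical log axis), for the 4 footprint libraries on the left and the 4 RNA-seq libraries on the right. H/ACA points are the highest of the classes in footprints, at 0.679% to 4.06%, and lie below the C/D points in RNA-seq.

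Between cell types, Snora69 was higher and Snora30 lower in B cell footprints. Snora69 lies inside Rpl39, a large-subunit ribosomal protein gene (ENSMUSG00000065642, chromosome X, 37082912 to 37083033). It had 118 and 344 CPM in B cell libraries 1 and 3, from 28 and 80 counts, and 35.0 and 88.0 CPM in T cell libraries 1 and 2, from 22 and 12 counts. Both B cell values were above both T cell values. The log2 difference was 2.32 ± 0.63 (approximate SE, with adjusted p = 0.0316 in edgeR's quasi-likelihood test). The T cell libraries alone would not have brought Snora69 past the filter on low counts, which favoured a difference in this direction. Snora30, with the values given above and counts of 93 and 121 in B cells against 1035 and 836 in T cells, had a log2 difference of -2.95 ± 0.69 (edgeR adjusted p = 0.0132). These were the calls among the 13 members tested, 1 in each direction, and of all 4771 genes tested 8.38% were higher and 4.84% lower. The members' share of calls was near that background.

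Neither call held each time a library was left out, and both were lost when libraries were scaled to the summed H/ACA counts (edgeR adjusted p = 0.315 for Snora69 and 0.613 for Snora30). Without T cell library 2 the log2 difference of Snora30 was -1.68 (edgeR adjusted p = 0.0515). Without B cell library 3 that of Snora69 was 1.28 (adjusted p = 0.0969), and without T cell library 1 it was 1.47 (adjusted p = 0.255). With all 8 libraries in a single edgeR fit the adjusted p of Snora69 was 0.0809.

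The other 11 members tested did not pass. Snora31 stood at -2.20 ± 0.81 (edgeR adjusted p = 0.113), and leaving out each library gave -3.49 to -0.52. It passed as lower without B cell library 3 or T cell library 1, and it also passed with plain library totals (adjusted p = 0.0439) and with no filter (0.00138). Snora62 stood at -2.01 ± 0.96 (edgeR adjusted p = 0.237), with -4.83 to -0.27 when each library was left out. It passed without B cell library 3, without T cell library 1 and with no filter. Snora23 stood at -1.26 ± 0.78, Snora17 at -0.97 ± 0.49 and Snora21 at -0.84 ± 0.68, with adjusted p-values of 0.391, 0.261 and 0.543 in edgeR. Without B cell library 3, Snora23 was -3.30 and passed (adjusted p = 0.00111), and its range over libraries left out reached -0.44. Snora73b (-0.56 ± 0.75), Snora20 (-0.35 ± 0.77) and Snora41 (-0.18 ± 0.55) were nearest to no difference, and turned positive without B cell library 1 (0.20, 0.49 and 0.43). Snora20 (-2.46) and Snora73b (-2.25) passed as lower when B cell library 3 was left out (edgeR adjusted p = 0.00157 and 0.0292). Scaling to the summed H/ACA counts, which moved the median of all genes to 1.28, turned them positive too, as it did Snora17 and Snora21. Snora78 stood at -1.58 ± 1.11 (adjusted p = 0.465) and depended on T cell library 2, without which it was 2.22 (edgeR adjusted p = 0.00949). It passed as lower without B cell library 3, without T cell library 1 and with no filter. Over the 13 members the median log2 difference was -0.84, beside 0.02 over all genes tested.

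Snora47 and Snora57 had positive differences that did not pass. Snora47, inside the zinc finger gene Zbed3 (chromosome 13, 95330611 to 95330736), had 156 and 641 CPM in B cell footprints and 89.2 and 191 CPM in T cell footprints. Its log2 difference was 1.79 ± 0.66 (edgeR adjusted p = 0.113), and B cell library 1 lay below T cell library 2. It passed as higher without B cell library 1, without T cell library 2 and with no filter, and leaving out each library gave 0.37 to 2.54. Snora57, inside the span of Lbhd1, had 198 and 30.1 CPM in B cells and 44.6 and 14.7 CPM in T cells. Its log2 difference was 1.82 ± 0.72 (adjusted p = 0.142), and B cell library 3 lay below T cell library 1. It passed without B cell library 3, without T cell library 1 and with no filter, and leaving out each library gave 0.02 to 2.94. By overlap alone, 1 member (Snora69) had both B cell libraries above both T cell libraries and 5 had both below, while 7 overlapped. Among all genes tested 20.6% were above and 32.6% below in this way.

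In RNA-seq 4 members had enough counts to be tested, and 0 passed in either direction (edgeR; 0 at an unadjusted p under 0.05, and 0 with DESeq2). Of all 13929 genes tested, 9.40% were higher and 9.06% lower in B cells. Snora57 had 7 and 4 counts in B cells against 14 and 14 in T cells, with a log2 difference of -1.23 ± 0.52 (edgeR adjusted p = 0.184). Snora31 stood at -0.57 ± 0.37, Snora41 at -0.51 ± 0.41 and Snora73b at -0.47 ± 0.40. All 4 had both B cell libraries below both T cell libraries, as had 33.6% of all genes tested.

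The gap between footprints and RNA-seq was then compared between B and T cells. None of the 15 members tested passed (0 higher and 0 lower by edgeR's interaction term, 2 at an unadjusted p under 0.05, 0 with DESeq2). Of all 13227 genes 0% passed in either direction, with 751 at an unadjusted p under 0.05. The members under that limit were Snora69 and Snora57. Snora69 had 108 footprint counts in B cells against 2 in RNA-seq, a ratio of 2123 (574 to 17760), and 34 in T cells against 17, a ratio of 49.7 (27.0 to 94.9). The difference was 5.09 ± 1.24 on the log2 scale (adjusted p = 0.875, edgeR). Snora57 had ratios of 193 (99.8 to 409) in B cells and 26.6 in T cells, with a log2 difference of 3.03 ± 1.15 (edgeR adjusted p = 0.875). Snora30 lay the other way, at -4.20 ± 1.91, on 3 RNA-seq counts in B cells and 1 in T cells. The counting intervals of Snora69 and Snora57, with higher ratios in B cells, and of Snora31, with the higher ratio in T cells, did not overlap between cell types, but they hold no spread between libraries.

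Each of the 41 members with RefSeq coordinates lay inside the span of at least 1 other gene, here called its host. Strand was not in the tables for the members, so hosts were found by span alone. The 14 counted hosts of members seen in footprints had a median of 6327.5 RNA-seq counts over the 4 libraries, and the 19 counted hosts of the members not seen there had 22598. Rps2 belongs to both sets, since it holds Snora78 and the unseen Snora64. Ribosomal protein genes were 4 of the 14 and 8 of the 19. Correlations were taken across the 15 members seen in footprints that had a counted host, and the unseen members were left out. Footprint CPM of the member and RNA-seq counts of the host had a Spearman correlation of 0.13. Footprint CPM and length had one of 0.013 (descriptions across genes). Srcap, which holds Snora30, had 30 and 34 RNA-seq counts in B cells against 33 and 31 in T cells. Rpsa, which holds the less abundant Snora62, had 44660 and 39786 in B cells against 64321 and 58726 in T cells.

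Hosts were also set between the assays. Of 30 hosts tested in B cells, 4 were higher and 16 lower in footprints than in RNA-seq, beside 6.52% and 12.3% of all genes tested. Their median log2 difference was -1.66, beside -0.44 over all genes. In T cells 5 hosts were higher and 15 lower, beside 8.91% and 18.7% of all genes, with a median of -2.05 beside -0.54. Dancr, the host of Snora26, is among the higher hosts of both cell types. It reached the filter on low counts only with its footprints, which favoured or forced that direction. Rpl39, the host of Snora69, stood at -3.89 ± 0.36 in B cells and -4.11 ± 0.36 in T cells (edgeR adjusted p = 0.000438 and 0.000312). Rpl23, the host of Snora21, stood at -2.00 ± 0.37 and -2.86 ± 0.38 (adjusted p = 0.00836 and 0.00169). Their snoRNAs had positive differences in the same fits. Other hosts had positive differences, like their snoRNAs. Srcap, the host of Snora30, stood at 3.43 ± 0.42 in B cells and 3.62 ± 0.38 in T cells (edgeR adjusted p = 0.00151 and 0.000626). Ipo7, the host of Snora23, stood at 1.08 ± 0.30 and 1.45 ± 0.28 (adjusted p = 0.0378 and 0.00808). Snhg3, the host of Snora73b, stood at 1.17 ± 0.51 and 1.16 ± 0.45 and did not pass (edgeR adjusted p = 0.139 and 0.0874).

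Between cell types, 0 of the 24 hosts tested passed in footprints (edgeR), beside 8.38% higher and 4.84% lower of all genes tested. Their median log2 difference was -0.13, beside 0.02 over all genes. In RNA-seq 1 of 29 hosts was higher and 0 lower, beside 9.40% and 9.06% of all genes. The median of the hosts there was -0.16, beside -0.009 over all genes. The host that passed was Zbed3, which holds Snora47. It had 256 and 161 RNA-seq counts in B cells against 82 and 42 in T cells, a log2 difference of 1.85 ± 0.42 (edgeR adjusted p = 0.0458). The call was lost without B cell library 1 or T cell library 4 (adjusted p = 0.132 and 0.0773). The hosts of the called snoRNAs did not pass in RNA-seq. Rpl39 stood at -0.29 ± 0.26 beside 2.32 for footprints of Snora69, and Srcap at 0.10 ± 0.33 beside -2.95 for footprints of Snora30. The difference between host and snoRNA was not tested.

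**Figure D4:**
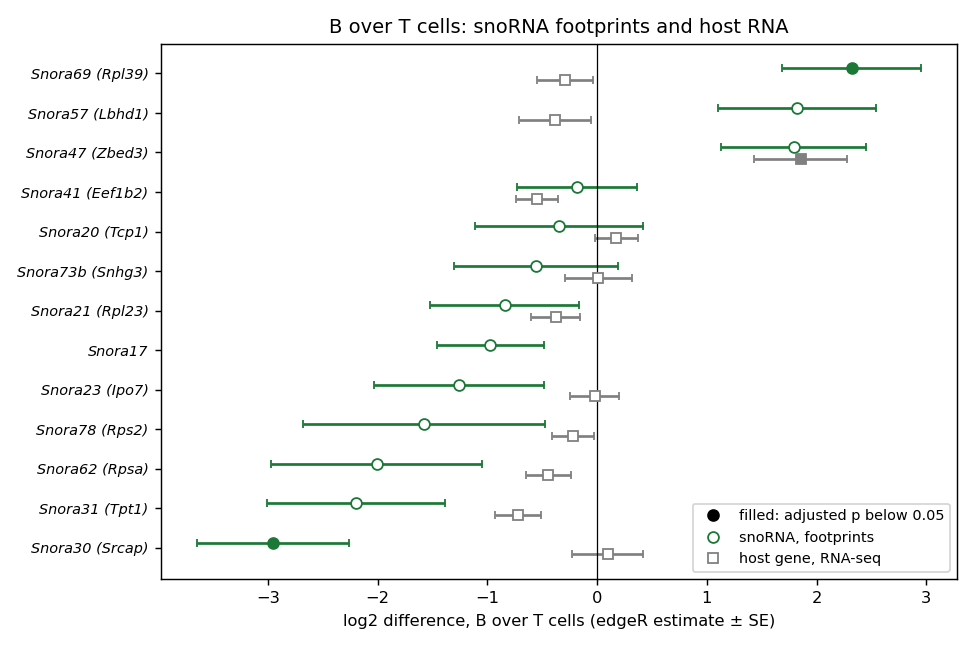
Log2 differences, B over T cells, with approximate standard errors (horizontal axis). Circles are footprints of the 13 H/ACA snoRNA genes tested, and squares are RNA-seq of the host gene in brackets. Filled marks passed at an adjusted p below 0.05, which were Snora69, Snora30 and the host Zbed3.

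Of the 4 core genes (Dkc1, Nop10, Nhp2 and Gar1), 0 passed between B and T cells in footprints and 0 in RNA-seq. So few genes cannot be set against the shares of all genes given above. Dkc1 had 118 and 86.0 CPM in B cell footprints and 62.1 and 58.6 CPM in T cell footprints, with a log2 difference of 0.91 ± 0.44 (edgeR adjusted p = 0.246). In RNA-seq it stood at -0.26 ± 0.11 (adjusted p = 0.193). Nhp2 stood at 0.93 ± 0.50 in footprints (adjusted p = 0.304) and 0.11 ± 0.15 in RNA-seq. Of the assembly genes Naf1, Shq1, Ruvbl1 and Ruvbl2, 1 could be tested in footprints and 4 in RNA-seq, and 0 passed. Of 12 pseudouridine synthases that need no guide RNA, 0 passed in RNA-seq and none could be tested in footprints. For comparison, 0 of the 4 core genes of the C/D particle (Fbl, Nop56, Nop58 and Snu13) passed in either assay.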

How the data were processed

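The deposited values are counts per gene for 53801 Ensembl gene IDs, which the authors made from RNA-seq and ribosome footprint reads. Per the submitters' processing notes the tools were FastQC, Bowtie2, TopHat and HTSeq with the mm10 build. The sources used here do not give tool versions, the counted feature, whether strand was used, the annotation release or the handling of multiply mapped reads. Footprint libraries held 136433 to 627833 counts and RNA-seq libraries 8945905 to 10050986. Sampling noise alone did not cover the differences within a group (chi-square per degree of freedom 4.43 to 29.4). Of the per-sample columns 0 were left unused.

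Symbols came from a gene names table, which named 53620 of the IDs, and positions from RefSeq GRCm38.p6. CPM are counts over the plain library total. The test was the quasi-likelihood test of edgeR 4.0.16 (R 4.3.3) with TMM scaling, filterByExpr (minimum count 10, total 15) and Benjamini-Hochberg adjustment over all genes tested, at a threshold of 0.05. Footprints over RNA-seq and its difference between cell types came from a model of all 8 libraries, and B over T cells from the 4 libraries of each assay. Values after ± are approximate standard errors for log2 differences and standard deviations for shares. The approximate standard error is the size of the log2 difference over the square root of the test's F statistic. It is rough: for footprints over RNA-seq Snora21 had 0.81 in B cells, 0.80 in T cells and 0.38 for their difference. Ratios of pooled counts carry 95% exact counting intervals, and intervals and floors of 3 counts cover counting error only. Scripts were tested on simulated data. Described were the 12 members with the highest mean CPM in footprints, each member past the threshold between cell types and each with 10 or more RNA-seq counts, and the hosts and protein lists whatever their result. Hosts were taken by span, without the same-strand condition first intended. The members and lists were chosen with earlier results of these data known. Alternatives were other scalings, no filter, DESeq2 1.42.0, all 8 libraries in 1 fit, thinned RNA-seq, leaving out each library, and a replicate block.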

Additional observations from a re-analysis of the deposited data

How the results depend on the processing

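In footprints, 2 members passed between B and T cells. The count was 2 with RLE scaling, with DESeq2 and with totals from genes other than small RNAs, and 3 with plain library totals, which moved the median log2 difference of all genes to -0.15. Of 4771 genes, 390 were higher and 223 lower with RLE scaling, and 327 and 161 with DESeq2. With totals from other genes these were 396 and 240, and with plain totals 373 and 307. The count of members was 1 of 15 tested with all 8 libraries in a single edgeR fit (Snora69 lost, adjusted p = 0.0809). All genes had 316 higher and 166 lower of 13227 in that fit. With no filter it was 7 of 16, with 3 higher and 4 lower, beside 548 higher and 370 lower of 13458 genes. It was 0 of 13 when scaled to the summed H/ACA counts, beside 187 higher and 21 lower of 4771 genes. Leaving out a library left 1 in its group, and the members called then changed with the library left out. The scaling to summed H/ACA counts, with all genes at a median of 1.28, turned the direction of Snora17 (0.58), Snora20 (0.40), Snora21 (0.32), Snora41 (0.55) and Snora73b (0.26). Leaving out libraries gave ranges of -2.46 to 0.49 for Snora20, -1.31 to 0.43 for Snora41, -2.25 to 0.20 for Snora73b and -3.23 to 2.22 for Snora78. The cause was not tested. Calls gained in B over T footprints, other than by leaving out a library, were those of Snora31, Snora62, Snora78, Snora47 and Snora57 with no filter, and of Snora31 with plain library totals. Footprints over RNA-seq gave 11 to 15 members in B cells and 13 to 15 in T cells without each library, and 11 and 12 with thinned RNA-seq, where 12 were tested. Replicate numbers 1 and 3 occur in both assays of B cells, but no label says that they pair the libraries. They were not used as pairs in the main test. The correlation of their deviations was -0.0077 over 13227 genes. It cannot decide on pairing, since counting noise is large in such shallow footprint libraries. T cells share only number 1. With a replicate block 15 members passed in B cells, 14 in T cells and 1 in the difference between cell types. The last was Snora69 (adjusted p = 0.00653, beside 0.0956 with DESeq2 and at least 0.452 in the other alternatives run). For that difference the block fit called 68 up and 19 down of 13227, where the main fit called 0. T cell libraries 2 and 4 stand alone in their blocks, so the T cell effect there rests on the libraries numbered 1. Little is then left to measure the spread between libraries, and the Snora69 call is a description only. RNA-seq gave 0 calls between cell types in every alternative run. The H/ACA share, B over T, kept its direction in all alternatives run (log2 -2.20 to -0.58 without each library in footprints, -0.87 to -0.35 in RNA-seq). Low RNA-seq counts, from 0 to 73 per member and library, limit every ratio.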

Other observations

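Dancr, a noncoding RNA gene whose span holds Snora26, had 6 and 66 footprint counts in B cell libraries 1 and 3 and 82 and 39 in T cell libraries 1 and 2, while its RNA-seq counts were 2 and 1 in B cells and 0 and 1 counts in T cells. Snora26 itself was at 0 in all 8 libraries. Dancr was picked out after its values were seen.

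Snhg9, which shares the span of Snora78, had 0 and 0 footprint counts in B cells against 3 and 1 in T cells, beside 15 and 73 for Snora78 in B cells against 29 and 171 in T cells. Terc, the telomerase RNA, which carries an H/ACA domain and binds the same core proteins, had 6 and 10 footprint counts in B cells against 24 and 11 in T cells. In RNA-seq Terc had 0 and 0 counts in B cells against 1 and 2 in T cells. Rmrp, an RNA of another particle, was at 0 in all 8 libraries.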
